A study of Mus musculus with 15 samples.

Results

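The 33 genes described here are interferon-stimulated genes, a set fixed by name: Ifit1, Ifit2, Ifit3, Isg15, Usp18, Irf1, Irf7, Irf9, Stat2, Oasl2, Oas1a, Ifih1, Dhx58, Ddx60, Zbp1, Trim25, Gbp2, Gbp3, Gbp7, Parp9, Parp14, Dtx3l, Rsad2, Cmpk2, Bst2, Isg20, Samd9l, Ifi27l2a, Ifi44, Xaf1, Rtp4, Lgals3bp and Ifi35. All 33 had values in every library and all 33 passed the filter on low counts, out of 17892 genes with values and 14853 genes tested. RNA was sequenced from brain cells isolated for PDGFRβ, a receptor of pericytes, vascular smooth muscle cells and fibroblasts, from neonatal wild-type (WT) mice and mice lacking the microRNA miR-210 (KO). Each genotype was studied after a sham procedure and 24 h after hypoxia-ischemia (HI), a model of birth asphyxia that combines reduced blood flow to the brain with low oxygen. There were 3 WT sham libraries (numbered 1, 2 and 3), 4 KO sham libraries (1, 3, 4 and 6), 4 WT HI libraries (1, 2, 4 and 5) and 4 KO HI libraries (1 to 4). The labels give genotype and treatment, and do not say which strain, sex or age in days was used, whether a library came from 1 animal or from pooled animals, or whether the knockout is confined to a cell type. The p-values therefore measure only the spread between these libraries, which may be technical.

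Interferons are secreted proteins that cells release when they sense viral or misplaced nucleic acid. Binding to their receptors activates JAK kinases, which phosphorylate STAT proteins. A complex that holds STAT2 and IRF9 binds the interferon-stimulated response element in gene promoters, and the gamma-activated site is a further element of the pathway. The genes turned on in this way bind or degrade foreign RNA, restrict viruses, and feed back on the pathway. In the brain, microglia, endothelial cells and pericytes can all express them.

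Total counts ran from 15436376 to 18118697 per library, and a single member gene had between 14 and 4147 counts in a library. The line of the targeted gene, Mir210, held no value in any library, so the labelled genotype could not be checked on it. Levels are given as CPM (counts scaled to the normalized library size, computed with edgeR). CPM values are not corrected for transcript length, so member levels are compared between libraries and not between genes. Sums over marker lists, and the part of a gene in such a sum, are in the same uncorrected units. The pericyte genes Pdgfrb and Rgs5 were present in every library, at 194 to 1049 and 712 to 6122 CPM. Markers of other cell types were present as well, with no marker at 0 in all libraries. Summed over a list, pericyte markers lay between 1671 and 11059 CPM and endothelial markers between 2934 and 11820 CPM. Astrocyte markers lay between 346 and 13551 CPM and choroid plexus markers between 121 and 53815 CPM. The mean choroid plexus level was highest in KO HI 2, at 9.28 log2 CPM. The part of these cell types in the member values was not tested. The summed level of 16 microglia markers (in CPM) lay between 3082 and 4348 in the WT sham group, between 4106 and 7228 in the KO sham group, between 2329 and 6003 in the WT HI group, and between 7547 and 16261 in the KO HI group. Neuron markers stood apart in 5 libraries (WT sham 2, KO sham 1, KO sham 3, KO HI 2 and KO HI 3), with a mean of 3.08 to 6.57 log2 CPM against 0.30 to 2.06 in the other libraries. In these bulk libraries a smaller number of cells of a type and less RNA per cell cannot be told apart.

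Promoter sequence was read for 26 of the 33 genes, from RefSeq windows of the assembly GRCm38.p6 that run from 250 bases before to 50 bases after the start of the gene. The core of the interferon-stimulated response element, GAAA followed by 2 bases of any kind and again GAAA, was searched on both strands; on the other strand it reads TTTC, 2 bases, TTTC. It occurred in 12 of the 26 genes (46.2%), against 3.84% of the 11794 tested genes with a window; a gene with several windows counted once. The letters TTCNNNGAA, the gamma-activated site, occurred in 7 of the 26 genes (26.9%), against 8.33% of the tested genes. No overlap with another motif was searched. The stretches below are shown because they belong to the members with the smallest p-values after HI that hold a match; capitals mark the letters of this core on either strand, and where matches overlap the capitals run through both.
Rsad2, chr12:26456543-26456592, minus strand: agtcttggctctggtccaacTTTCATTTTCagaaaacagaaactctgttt
Ifit3, chr19:34583387-34583436, plus strand: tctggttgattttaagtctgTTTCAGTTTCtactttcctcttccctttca
Gbp3, chr3:142559985-142560034, plus strand: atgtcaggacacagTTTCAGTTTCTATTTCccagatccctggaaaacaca
Oas1a, chr5:120907526-120907559, minus strand: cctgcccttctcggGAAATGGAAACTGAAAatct
Bst2, chr8:71537567-71537616, minus strand: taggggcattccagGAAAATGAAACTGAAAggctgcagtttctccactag
Ifit1, chr19:34640784-34640833, plus strand: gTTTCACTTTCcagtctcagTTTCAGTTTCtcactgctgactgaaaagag
The match lay 120 bases before the start in Rsad2. Ifit3 held matches at 122 and 156 bases before it, of which the nearer is shown. The pair of matches began 39 and 45 bases before the start in Gbp3, 14 and 20 in Oas1a, 124 and 130 in Bst2, and 85 and 104 in Ifit1. A match is a description of letters in this window and not of a bound site.

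**Figure D1:**
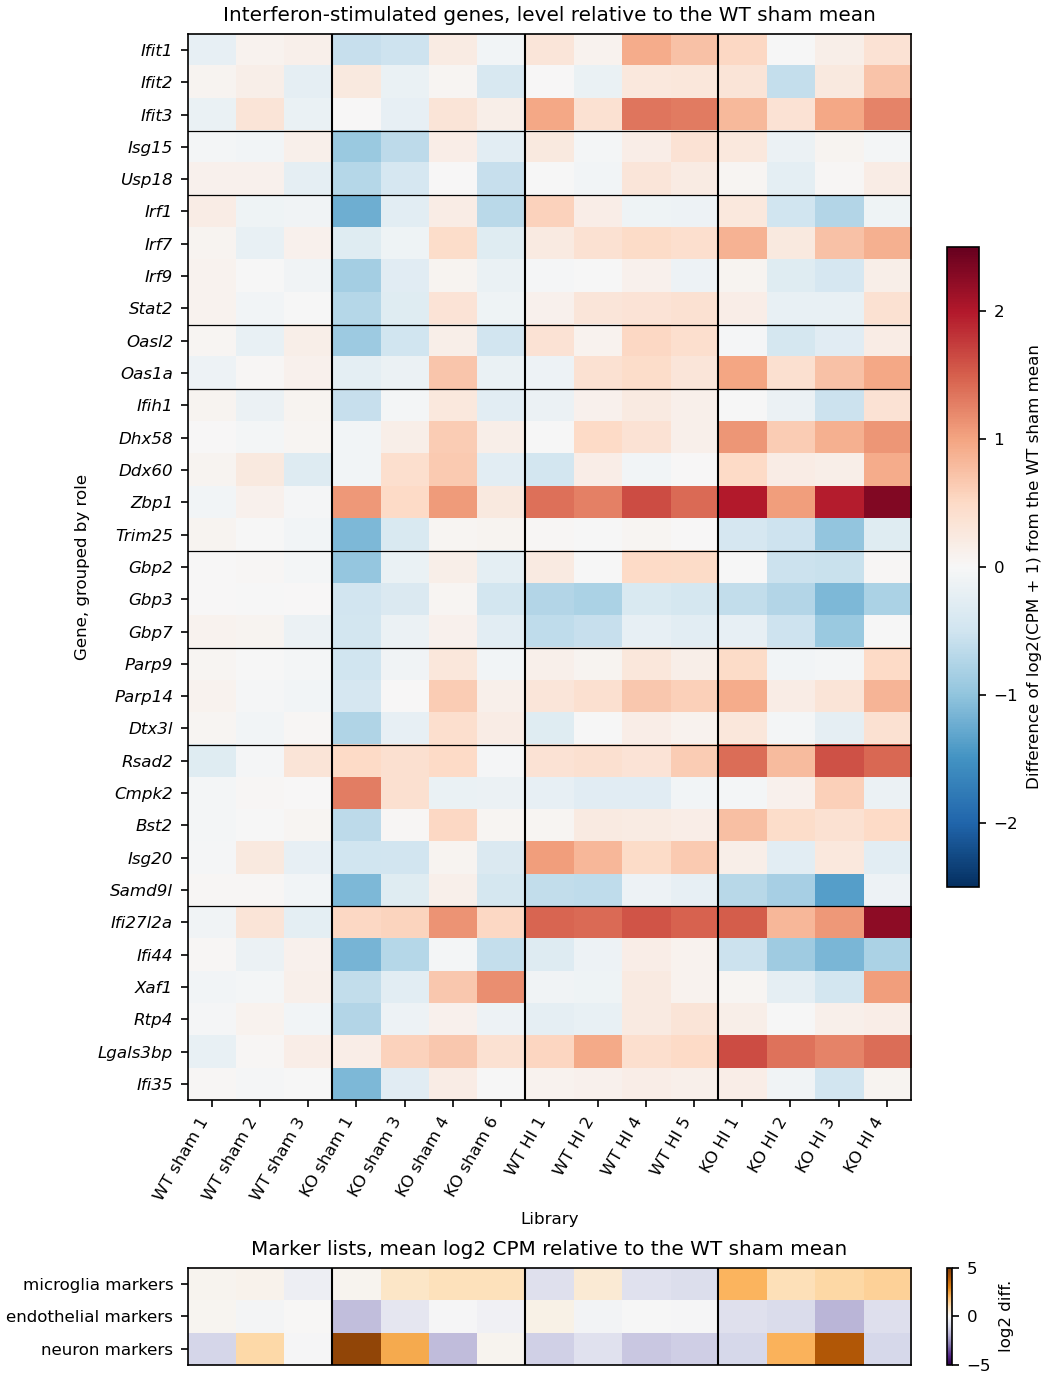
Each row is a gene, grouped by role, and each column a library; colour gives the difference of log2(CPM + 1) from the WT sham mean (red higher, blue lower), and the lower panel gives the mean log2 CPM of the microglia, endothelial and neuron marker lists on the same kind of scale. The rows of Zbp1 and Ifi27l2a are red in every HI library, the column of KO sham 1 is blue for most genes, and the Lgals3bp and Rsad2 rows are darkest in the KO HI libraries.

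The first comparison asked how these genes differed between HI and sham in WT libraries. Zbp1 and Ifi27l2a rose and no other member of the 33 was called. A gene was called where the quasi-likelihood test of edgeR gave a p under 0.05 after Benjamini-Hochberg adjustment over all tested genes. Over all tested genes 1.82% were called in this comparison, 1.38% higher and 0.444% lower. The median log2 fold change of the 33 genes was 0.16, with 26 positive and 7 negative values, against a median of -0.01 over all tested genes, of which 48.1% were positive.

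Zbp1, which senses left-handed nucleic acid and can trigger necroptosis, was at 0.801, 1.01 and 0.830 CPM in WT sham libraries and at 3.89, 3.48, 4.85 and 4.02 CPM in WT HI libraries. Every HI library lay above every sham library, and the log2 fold change was 2.20 ± 0.40 (SE; edgeR adjusted p = 0.014), or 4.59-fold. Ifi27l2a, a small interferon-induced membrane protein, was at 3.32, 4.75 and 2.88 CPM in sham and at 11.6, 11.2, 12.6 and 11.7 CPM in HI. Its 4 HI libraries lay close together and above all sham libraries, and its log2 fold change was 1.69 ± 0.34 (edgeR adjusted p = 0.0221), or 3.22-fold. The groups failed to overlap for 11 members in the upward direction and 4 in the downward direction, against 15.9% and 15.8% of all tested genes.

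Ifit3 had the third smallest p of the 33. It encodes a partner of IFIT1 in binding foreign RNA, and its levels were 9.09, 13.0 and 9.07 CPM in WT sham and 20.9, 13.6, 27.5 and 26.8 CPM in WT HI libraries. The groups did not overlap, although HI library 2 lay just above the highest sham library, and the log2 fold change of 1.10 ± 0.27 was not called (edgeR adjusted p = 0.0583). Ifit3 had fractional counts in all 15 libraries, as reads shared with a near-identical copy can give, so its split from Ifit3b is uncertain. The summed level of both copies was 11.4 to 16.2 CPM in WT sham and 17.6 to 35.1 CPM in WT HI libraries.

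Among the other members with the smallest p-values, none was called by edgeR. The galectin-binding glycoprotein Lgals3bp had a difference of 0.61 ± 0.16 log2 units (edgeR adjusted p = 0.072). For Isg20, an exonuclease that degrades RNA, it was 0.95 ± 0.28 (edgeR adjusted p = 0.119). Gbp3, a guanylate-binding GTPase, was at 68.3, 67.7 and 68.0 CPM in sham and at 40.6, 39.1, 51.9 and 50.2 CPM in HI. All 4 HI libraries lay below the sham libraries, and the log2 fold change was -0.58 ± 0.16 (edgeR adjusted p = 0.0796). Isg15, a ubiquitin-like modifier often read as a sign of interferon exposure, was at 11.8 to 13.7 CPM in sham and 12 to 16.4 CPM in HI, and Usp18, the protease that removes it, at 7.91 to 10.2 and 8.84 to 11.8 CPM. Both pairs of ranges overlapped, and neither gene was called. In KO after HI the log2 fold change was 0.433 for Isg15 and 0.464 for Usp18, above the 0.197 and 0.120 of WT. Neither was called there, and the KO groups overlapped as well.

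With WT sham 1, 2 or 3 left out, 0 members were called (6, 6 and 7 had an unadjusted p under 0.05) and 0.319% to 0.378% of all genes, while the log2 fold change of Zbp1 was 2.14, 2.31 and 2.16 and that of Ifi27l2a 1.62, 1.92 and 1.54. Without WT HI 1, 4 or 5 there was 1 call (0.776% to 1.11% of all genes), and without KO sham 1 there were 4 (3.75%). The main fit shares its estimate of spread with the KO libraries. When only the WT libraries entered the fit, edgeR called 9 members, 8 higher and 1 lower, and 17.1% of all genes. The count of calls in WT thus differed with the libraries that entered the fit. The filter and the normalization were redone on these libraries as well, and why the count moved was not tested. Microglia markers were called lower for 2 of 16 (median log2 fold change -0.33), and neutrophil and monocyte markers, summing to 78 to 102 CPM in sham and 103 to 179 CPM in HI, were positive in 13 of 13 with 0 called. Of these sums Csf3r alone made up 20 to 35.6 CPM in sham and 17.5 to 61.6 CPM in HI. With the mean microglia marker level as a covariate the log2 fold change was 2.16 ± 0.43 for Zbp1 and 1.81 ± 0.36 for Ifi27l2a (edgeR adjusted p = 0.0121 and 0.0124); the part of neutrophils and monocytes was not tested.

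**Figure D2:**
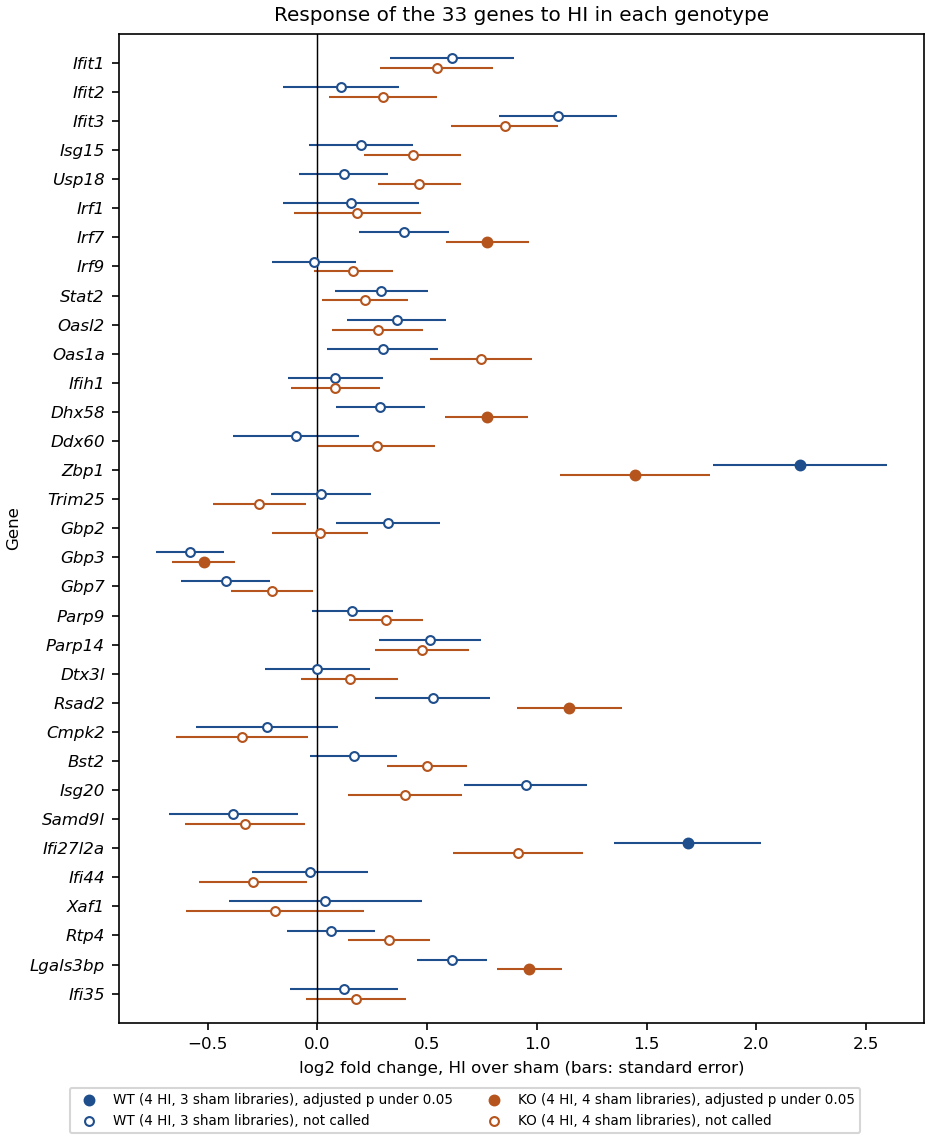
Points give the log2 fold change of each gene, HI over sham, in WT (blue, 4 HI and 3 sham libraries) and KO (orange, 4 and 4 libraries), with bars for the standard error; filled points passed the threshold of adjusted p under 0.05. Zbp1 and Ifi27l2a stand farthest to the right in WT, Gbp3 lies to the left of 0 in both genotypes, and most other genes lie within 1 log2 unit of 0.

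In KO libraries, 5 members were higher after HI, Lgals3bp, Rsad2, Zbp1, Dhx58 and Irf7, and 1 was lower, Gbp3. Over all tested genes 7.01% were called in this comparison, 4.88% higher and 2.13% lower. The median log2 fold change of the 33 genes was 0.30, with 26 positive and 7 negative, against -0.06 over all tested genes, of which 42.9% were positive. The KO libraries are separate from the WT libraries, so no control is shared between the responses of the 2 genotypes.

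Lgals3bp was at 83.9, 111, 119 and 97.1 CPM in KO sham and at 234, 193, 177 and 198 CPM in KO HI libraries. The groups did not overlap, and the log2 fold change was 0.97 ± 0.15 (edgeR adjusted p = 0.00483), or 1.95-fold. Rsad2 encodes viperin, an enzyme that makes a chain-terminating nucleotide against viral polymerases. Its levels were 4.54, 4.14, 4.52 and 2.85 CPM in KO sham and 9.32, 5.81, 10.8 and 9.67 CPM in KO HI libraries. These groups did not overlap either, with KO HI 2 the lowest of the HI libraries, and the log2 fold change was 1.15 ± 0.24 (edgeR adjusted p = 0.0153), or 2.22-fold.

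Zbp1 was at 3.0, 1.64, 2.95 and 1.21 CPM in KO sham and 6.44, 2.88, 6.29 and 8.38 CPM in KO HI libraries. KO HI 2 lay within the sham range, and the log2 fold change was 1.45 ± 0.34 (edgeR adjusted p = 0.0261), or 2.73-fold. Dhx58 encodes a cytoplasmic receptor of double-stranded RNA related to RIG-I. It was at 6.15, 7.26, 10.5 and 7.24 CPM in KO sham and 14.9, 10.5, 12.8 and 15 CPM in KO HI libraries. The highest sham library, KO sham 4, met the lowest HI library, KO HI 2, and the log2 fold change was 0.77 ± 0.19 (edgeR adjusted p = 0.0289), or 1.71-fold. Irf7, the transcription factor that amplifies interferon production, was at 12.6, 14.6, 22.1 and 12.6 CPM in KO sham and 29.7, 19.1, 27.1 and 30.1 CPM in KO HI libraries. The groups overlapped through KO sham 4 and KO HI 2, and the log2 fold change was 0.77 ± 0.19 (edgeR adjusted p = 0.0299), or 1.71-fold.

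Gbp3 went the other way, at 48.4, 52.6, 70.4 and 49.5 CPM in KO sham and 44.0, 40.8, 30.6 and 38.8 CPM in KO HI libraries. All HI libraries lay below all sham libraries, and Gbp3 fell by 0.52 ± 0.15 on the log2 scale (edgeR adjusted p = 0.0481), a 1.43-fold fall. Of the guanylate-binding neighbours, Gbp7 had a log2 fold change of -0.21 and Gbp2 of 0.01. Of all 33 members, 3 (Ifit3, Rsad2 and Lgals3bp) had KO HI libraries entirely above KO sham and 1 (Gbp3) entirely below, against 6.06% and 2.78% of all tested genes.

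Several groups had no call after HI in either genotype. The 3 IFIT genes had a median log2 fold change of 0.61 in WT and 0.54 in KO, with 0 called by edgeR in each. Ifit3 came close in KO as in WT, at 0.853 ± 0.245 (edgeR adjusted p = 0.054), and its KO groups did not overlap. DESeq2 called Ifit3 in both genotypes. The 2 oligoadenylate synthetase genes, which make the activator of RNase L, had medians of 0.33 and 0.51, with 0 called; Oas1a too had fractional counts in all 15 libraries and may share reads with Oas1g. The 3 genes of the PARP9, PARP14 and DTX3L group, which attach ADP-ribose and ubiquitin in the interferon response, had medians of 0.16 and 0.31, with 0 called. Apart from Irf7 in KO, the transcription factors were not called: Irf9 was at 42.2 to 47.8 CPM in WT sham and 40.6 to 47.9 CPM in WT HI, and Irf1 at 64.7 to 79.8 and 63.7 to 105 CPM, with overlapping groups. By unadjusted p under 0.05 there were 8 members in WT and 12 in KO, against 12.8% and 22% of all tested genes.

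Of the 6 calls in KO, those of Lgals3bp and Rsad2 held whichever of the 15 libraries was left out, with edgeR adjusted p up to 0.019 and 0.0489. The count was 2 without KO sham 3, KO sham 6, KO HI 1 or KO HI 4 (2.39% to 6.06% of all genes) and 3 without KO HI 3 (4.92%); Zbp1 and Irf7 lost their calls without any of these 5 libraries, Dhx58 without the first 4, and Gbp3 in 13 of the 15 fits. When only the KO libraries entered the fit, edgeR called 0 of 33 and 0.111% of all genes, and 9 members had an unadjusted p under 0.05; the log2 fold change was then 0.94 for Lgals3bp, 1.13 for Rsad2 and 1.43 for Zbp1. The marker lists moved in the same comparison. The mean microglia level did not overlap, at 7.39 to 8.19 log2 CPM in KO sham and 8.23 to 9.32 log2 CPM in KO HI. A fit with this level as a covariate therefore separates it poorly from HI. Microglia markers rose for 5 of 16 (median log2 fold change 0.86), and neutrophil and monocyte markers for 4 of 13, with summed levels of 91 to 145 CPM in KO sham and 129 to 246 CPM in KO HI. Csf3r alone, which was not called, made up 63.6 to 130 CPM of these sums in KO HI. The 4 called genes, S100a8, S100a9, Ccr2 and Mmp8, were each at 0.403 to 24.7 CPM there. With the microglia level as a covariate Lgals3bp kept its call (0.74 ± 0.13, edgeR adjusted p = 0.0135) and the other 5 did not: Rsad2 had 1.22 ± 0.30 (adjusted p = 0.0631), Zbp1 1.51 ± 0.44 (adjusted p = 0.115), Gbp3 -0.53 ± 0.18 (adjusted p = 0.171), Irf7 0.64 ± 0.22 (adjusted p = 0.188) and Dhx58 0.53 ± 0.19 (adjusted p = 0.191). The part of neutrophils and monocytes was not tested.

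In sham libraries the genotypes were compared next. With edgeR, 0 of the 33 members were called between KO and WT sham, where 0.0135% of all tested genes were called (0.00673% higher and 0.00673% lower); 5 members had an unadjusted p under 0.05, 3 higher and 2 lower in KO, against 8.56% of all tested genes. DESeq2 and limma-voom each called 0 members, and the smallest edgeR adjusted p was 0.477. The median log2 fold change was -0.13, against 0.05 over all tested genes.

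The 6 members with the smallest p all had an edgeR adjusted p of 0.477. Zbp1 had 1.31 ± 0.39 as its log2 fold change, Ifi27l2a 0.82 ± 0.33 and Lgals3bp 0.46 ± 0.16, and for these 3 genes every KO sham library lay above every WT sham library, against 4.63% of all tested genes; 0 members lay entirely below, against 5.49%. Ifi27l2a was at 5.56, 5.73, 8.97 and 5.54 CPM in KO sham. On the other side, Ifi44 had a log2 fold change of -0.64 ± 0.26, Usp18 of -0.45 ± 0.20 and Gbp3 of -0.30 ± 0.16, with groups that overlapped. Marker levels differed in the same comparison without any call: the log2 fold change was positive for 16 of 16 microglia markers (median 0.69) and 13 of 13 neuron markers (median 2.63), and for 0 of 10 pericyte markers (median -0.84). Their part in the member values was not tested.

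KO sham libraries differed among themselves. The median coefficient of variation of the 33 members was 31.5% in KO sham, 8.48% in WT sham, 14.1% in WT HI and 21.1% in KO HI, against 25.8%, 8.20%, 10.5% and 22.6% over all tested genes. KO sham 1 was the lowest of the 15 libraries for 22 of the 33 members (66.7%), and the lowest for 21.5% of all tested genes. This library also had the highest level of neuron (6.57 log2 CPM), astrocyte (8.90) and oligodendrocyte lineage markers (7.71). The part of its cell content in these levels was not tested. Without it the median log2 fold change of KO against WT sham was -0.003.

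**Figure D3:**
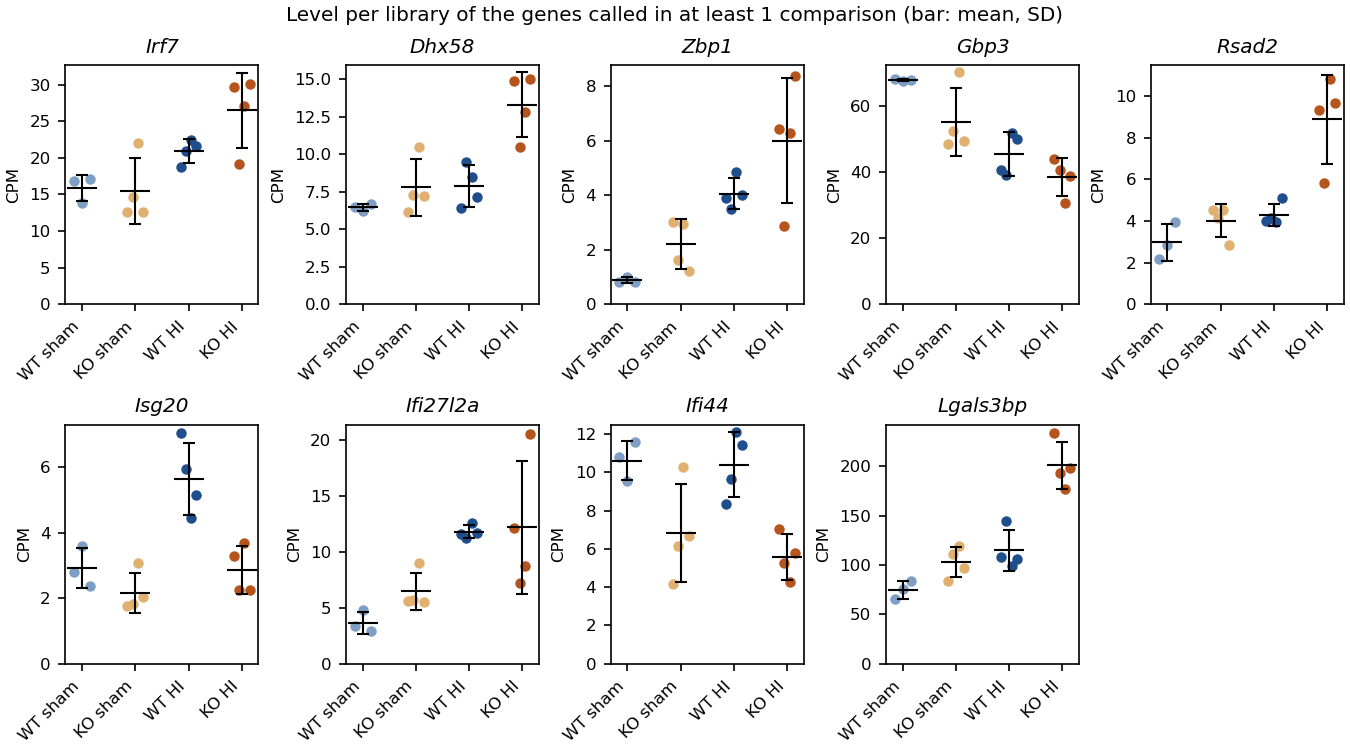
CPM per library for the 9 genes called in at least 1 comparison, in WT sham (3 libraries), KO sham, WT HI and KO HI (4 each); points are libraries and the bars show mean and SD. The KO HI points of Lgals3bp and Rsad2 lie above all other libraries, those of Isg20 lie below all WT HI points, and Zbp1 and Ifi27l2a of WT HI lie above all sham points of WT.

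After HI, the KO libraries had higher Lgals3bp, Rsad2 and Dhx58 and lower Isg20 and Ifi44 than the WT libraries. These 5 of 33 were called in a comparison in which 12.4% of all tested genes were called, 5.96% higher and 6.46% lower. The median log2 fold change of the members was 0.03, with 17 positive and 16 negative, against 0.06 over all tested genes. This comparison uses the same HI libraries as the responses above, so its values are not independent of them.

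Lgals3bp was at 108, 145, 99.4 and 106 CPM in WT HI and 234, 193, 177 and 198 CPM in KO HI libraries. The groups did not overlap, and the log2 fold change was 0.81 ± 0.15 (edgeR adjusted p = 0.00713), or 1.75-fold. Rsad2 was at 4.0, 4.16, 3.95 and 5.09 CPM in WT HI and 9.32, 5.81, 10.8 and 9.67 CPM in KO HI. All KO libraries lay above all WT libraries, and the log2 fold change was 1.05 ± 0.24 (edgeR adjusted p = 0.0168), or 2.07-fold. Dhx58 was at 6.40, 9.46, 8.51 and 7.13 CPM in WT HI and 14.9, 10.5, 12.8 and 15 CPM in KO HI. Here too the groups did not overlap, and the log2 fold change was 0.75 ± 0.19 (edgeR adjusted p = 0.0225), or 1.69-fold.

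Isg20 was at 7.03, 5.93, 4.45 and 5.15 CPM in WT HI and 3.28, 2.24, 3.69 and 2.24 CPM in KO HI libraries. The WT HI libraries were the 4 highest of all 15, and the log2 fold change of KO against WT was -0.98 ± 0.26 (edgeR adjusted p = 0.0278), or 1.97-fold lower. Ifi44, a cytoplasmic protein that restricts viral replication, was at 8.34, 9.64, 12.1 and 11.4 CPM in WT HI and 7.06, 5.24, 4.24 and 5.76 CPM in KO HI. The groups did not overlap, and the log2 fold change was -0.90 ± 0.25 (edgeR adjusted p = 0.0337), or 1.86-fold lower. By unadjusted p under 0.05 there were 10 members, 5 higher and 5 lower, against 31.2% of all tested genes. Gbp2 followed with -0.57 ± 0.22 and was not called (edgeR adjusted p = 0.0982). The groups failed to overlap for 4 members upward (the 3 called ones and Bst2, which tethers budding virus to the cell) and 3 downward (Isg20, Ifi44 and Trim25, a ubiquitin ligase that activates RIG-I), against 9.89% and 11.5% of all tested genes.

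Lgals3bp kept its call whichever library was left out (edgeR adjusted p up to 0.0372). The count of 5 was 1 without WT HI 1 or WT HI 4 (3.24% and 3.63% of all genes), 2 without WT HI 5 (3.76%), 3 without KO HI 1 or KO HI 2 (4.51% and 12.3%), and 8 without KO sham 1 (24.4%). Rsad2 lost its call without WT HI 1 or 4, Dhx58 without WT HI 1, 4 or 5 or KO HI 1, Isg20 without these 4 or KO HI 2, and Ifi44 without WT sham 1, WT HI 1, 4 or 5, or KO HI 2 or 3.

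Marker lists of several cell types differed in this comparison. All 16 microglia markers were called higher in KO HI than in WT HI libraries (median log2 fold change 1.67). Endothelial markers were called lower for 9 of 12 (median -1.05; summed level 9034 to 11820 CPM in WT HI and 2934 to 5793 CPM in KO HI), and pericyte markers for 4 of 10 (median -1.11; 5792 to 8074 and 1671 to 5586 CPM). The mean microglia level was 6.41 to 7.78 log2 CPM in WT HI and 8.23 to 9.32 log2 CPM in KO HI, without overlap. A fit with this level as a covariate therefore separates genotype and microglia level poorly. In that fit edgeR called 0 of the 33 members and 0.00673% of all genes, and 6 members had an unadjusted p under 0.05. The log2 fold change of Lgals3bp was then 0.24 ± 0.21 (edgeR adjusted p = 0.436) and that of Dhx58 0.12 ± 0.31 (adjusted p = 0.796). Rsad2 had 1.22 ± 0.48, Isg20 -1.50 ± 0.48 and Ifi44 -1.41 ± 0.48, each with an edgeR adjusted p of 0.176. The part of the endothelial and pericyte levels in these differences was not tested.

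**Figure D4:**
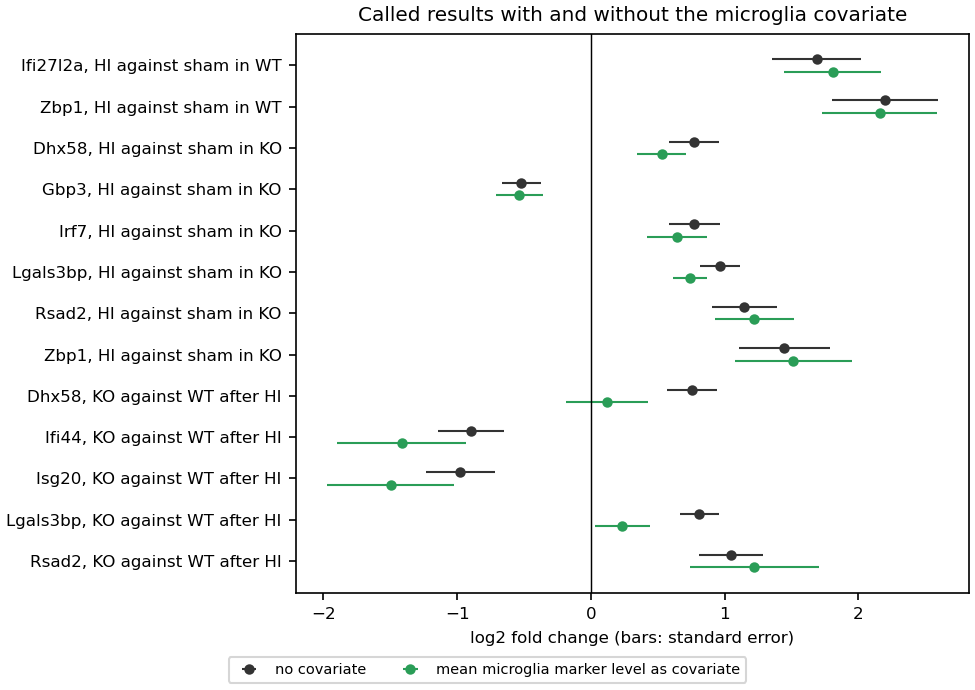
For each called gene and comparison, the log2 fold change (points, with bars for the standard error) is shown without a covariate (black) and with the mean microglia marker level of the library as covariate (green). Between the genotypes after HI, Lgals3bp and Dhx58 lie closer to 0 with the covariate, while Rsad2, Isg20 and Ifi44 do not and have wider bars. The microglia levels of WT HI and KO HI did not overlap, so the covariate separates genotype and microglia level poorly.

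Whether the response to HI differed between the genotypes was tested directly as an interaction. With edgeR, 0 of the 33 members were called, as were 0% of all tested genes; 0 members had an unadjusted p under 0.05, against 5.17% of all tested genes, and DESeq2 and limma-voom called 0. The largest difference of KO minus WT was -0.77 log2 units for Ifi27l2a (approximate 95% interval -1.63 to 0.08). Next were -0.75 for Zbp1 (-1.74 to 0.24) and 0.62 for Rsad2 (-0.07 to 1.31). For Isg20 the difference was -0.55 (-1.29 to 0.19), for Dhx58 0.48 (-0.06 to 1.02) and for Lgals3bp 0.35 (-0.07 to 0.77). Each of these intervals includes 0 and reaches well to 1 side of it, so they do not show that the genotypes responded alike.

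The pathway around the members was read from lists of its other genes. Over all tested genes, 1.82% were called after HI in WT and 7.01% after HI in KO. Between KO and WT after HI the share was 12.4%. Of 21 interferon ligand genes, 3 had values and 0 passed the filter: Ifnb1 had 4 counts over all 15 libraries, Ifng 2 and Ifnz 15. The lines of the other 18 ligands were blank, which does not show absence of the transcripts. Among 6 receptor genes 0 were called in WT after HI. Ifngr2, a chain of the interferon-gamma receptor, rose in KO after HI (0.58 ± 0.14, edgeR adjusted p = 0.0289) and was higher in KO than in WT HI (0.48 ± 0.14, adjusted p = 0.0405), as was Ifngr1 (0.71 ± 0.21, adjusted p = 0.0408). Of 4 JAK and STAT genes, Jak2 was lower in KO than WT after HI (-0.45 ± 0.12, edgeR adjusted p = 0.0322) and no other call was made. Of 8 inhibitors of the pathway only Ptpn6, the phosphatase SHP-1 of blood-derived and microglial cells, was called, rising in KO after HI by 1.25 ± 0.31 (edgeR adjusted p = 0.0324) and higher in KO than WT after HI by 1.51 ± 0.32 (adjusted p = 0.012).

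The counts that follow stand beside the same shares of all tested genes. These were 1.82% after HI in WT, 7.01% after HI in KO, and 12.4% between KO and WT after HI. Of 14 upstream sensors and adaptors, 1 rose after HI in WT and 3 in KO. Ikbke, a kinase that activates IRF3 and IRF7, rose by 1.04 ± 0.24 in WT (edgeR adjusted p = 0.0499) and by 1.57 ± 0.22 in KO (adjusted p = 0.00282). Tlr7, an endosomal receptor of single-stranded RNA, and Irf8, a transcription factor of myeloid cells, rose in KO by 1.4 ± 0.34 and 1.32 ± 0.37. Between the genotypes after HI 5 were higher in KO and 0 lower: Tlr9, Tlr7, Irf8, Irf5 and Cgas, by 1.68, 1.46, 1.51, 1.34 and 0.94 log2 units. Of 56 further interferon-stimulated genes that were tested, edgeR called 0 in WT after HI, with Slfn2 closest (adjusted p = 0.0613). In KO after HI 5 rose and 0 fell: Slfn2, Phf11b, Ifi204, Oas3 and Oasl1, by 1.70, 1.59, 1.39, 1.36 and 0.92 log2 units. Between KO and WT after HI 10 were higher, among them Phf11b (1.81), Mx1 (1.58), Epsti1 (1.41) and Trim14 (1.39), and Helz2 was lower (-0.92). Microglia markers were called higher for 16 of 16 between KO and WT after HI, and for 5 of 16 in KO after HI. This is the direction of the pathway genes called higher, and not that of Helz2 or Jak2. With the microglia level as a covariate hardly any gene was called between KO and WT after HI, as given above. That fit separates genotype and microglia level poorly. The part of microglia in these pathway genes was not tested.

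The promoter letters shown above can be set beside the responses. In KO after HI the 12 members with the response element core had a median log2 fold change of 0.35, with Rsad2 up and Gbp3 down, and the 14 members whose window held no match had a median of 0.17, with Irf7 and Lgals3bp up. In WT the medians were 0.24 and 0.07, with 0 called in either group. The 7 members without a window had medians of 0.48 in KO and 0.29 in WT, positive in 7 of 7 in each, and include both genes called in WT. Rsad2 and Gbp3, which moved in opposite directions, both hold a match. Ifit1 and Ifit3 hold matches as well and were not called by edgeR in either genotype. Ifit3 came close to the threshold, with an edgeR adjusted p of 0.0583 in WT and 0.054 in KO.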

How the data were processed

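The values deposited by the authors are unnormalized expected counts, the reads estimated to come from each gene. The header states no unit: it was taken from the mention of RSEM and from the 3.12% to 3.92% of values per library that are fractional. Per the submitters' processing notes RSEM 1.3.1, HISAT2 2.1.0, DESeq2 1.4.5, Bowtie2 2.4.4 and Bowtie were used with mm39; their roles and the strandedness of counting are not given in the sources used here. In all it had 65535 lines, 17892 with values and 47643 blank, and it may be cut off at that length; blank lines are not read as absent transcripts. Gene IDs were paired with symbols for 17862 lines. Per the labels, RNA was extracted with a kit for small samples and libraries came from a commercial service.

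Here the expected counts were rounded, and genes passing filterByExpr were fitted in edgeR 4.0.16 (R 4.3.3; TMM, glmQLFit, glmQLFTest) with 4 group means over all 15 libraries, which share 1 estimate of spread. The call in each of 5 contrasts was a p under 0.05 after Benjamini-Hochberg adjustment over 14853 genes; the biological coefficient of variation was 38.6%. Intervals at 95% are the estimate plus and minus a normal quantile of its standard error, and cover only the fit's error. They are approximate and narrower than the edgeR test implies. The scripts were tested on simulated data. Members with a fold change and p in the text are those called and, in each contrast, the 6 with the smallest p; of the other pathway genes the called ones, or those with the smallest p. Ifit3 in KO, given with its p as well, and genes named for other reasons (the remaining members, by level or fold change) were chosen after their values were seen. The members, gene lists and marker lists were chosen with earlier results of these data known. Alternatives were other size factors, DESeq2 1.42.0, limma-voom 3.58.1, no filter, a replicate block, microglia and neuron marker covariates, fewer libraries, and each library left out. Fractional counts also occurred for Stat2 in 6 libraries and for Dtx3l and Xaf1 in 1 each. Chi-square per degree of freedom between libraries of 1 group was 11.7 to 403, so none was a duplicate. A gene of the pathway is not reported here.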

Additional observations from a re-analysis of the deposited data

Results flagged for a closer look

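In the KO sham group, library 4 stood far from the other 3 for a pair of genes. Oas1a was at 16.4 CPM in KO sham 4 and at 8.05 to 8.73 CPM in the others. Ifi27l2a was at 8.97 CPM there and at 5.54 to 5.73 CPM in the others. These were 2 of 99 combinations of gene and group that were checked, and chance gives about 1 in 20. Oas1a plus its near-identical copy Oas1g summed to 17.9 CPM in KO sham 4, the highest of the KO sham libraries.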

How the results depend on the processing

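The count of called members was recomputed under 24 alternatives for each pairwise comparison and 23 for the difference of responses, which has no fit of fewer groups. The share of all genes called, given in brackets, moved as well. For HI against sham in WT (2 called, 1.82%) it was 6 with DESeq2 (5.26%), 1 with limma-voom (1.89%), 6 with the neuron covariate (8.79%) and 9 when only these groups were fitted (17.1%); 3 were called with the microglia covariate (4.82%), Lgals3bp being the addition, and 3 without the 5 libraries high in neuron markers (5.13%). For HI against sham in KO (6 called, 7.01%) it was 10 with DESeq2 (13%), 1 with the microglia covariate (1.84%), 12 with the neuron covariate (19.3%) and 0 when only these groups were fitted (0.111%). For KO against WT after HI (5 called, 12.4%) it was 0 with the microglia covariate (0.00673%) and 11 with the neuron covariate (18%). With the replicate number as a block the counts were 0, 0 and 0 (8, 13 and 9 at an unadjusted p under 0.05), with 0.108%, 0.491% and 0.141% of all genes called. The labels do not say that a number marks a shared litter or day. Deviations from the group means correlated at -0.784 to 0.793 in 15 same-numbered pairs (median 0.259, 10 over 0.1). The 69 other pairs had a median of -0.091 (24 over 0.1), and 4 of 13 libraries correlated best with their own number. These values do not settle whether the numbers pair the libraries. The main fit has no block, so its calls rest on libraries taken as unpaired. Leaving out 1 library gave 0 to 4, 2 to 8 and 1 to 8 called. Why these counts moved was not tested. Between the genotypes in sham, and for the difference of responses, 0 were called by edgeR, DESeq2 and limma-voom under all alternatives run (1 to 10 and 0 to 5 at an unadjusted p under 0.05). For single genes in these fits, 607 values kept direction and call, 20 gained and 87 lost a call, and 0 changed sign. The 607 include results not called in the main fit, which had no call to lose. All 87 losses fell on called results. For HI against sham in KO they ranged from 2 of 24 fits for Lgals3bp to 19 of 24 for Gbp3. Counting depth limits Zbp1, Isg20 and Rsad2 most, with as few as 14 counts in a library.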

Other observations

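Xaf1, an interferon-induced partner of the apoptosis inhibitor XIAP, varied more between KO libraries than between WT libraries, as did the tested genes in general. Their median coefficient of variation was 25.8% in KO sham and 22.6% in KO HI, against 8.2% in WT sham and 10.5% in WT HI. That of Xaf1 was the highest of all members in KO sham (58.7%) and in KO HI (56.8%). Xaf1 was at 10.1, 10.3 and 11.7 CPM in WT sham and at 9.94, 9.86, 12.7 and 11.4 CPM in WT HI. In KO sham it was at 6.59, 8.67, 17.7 and 25.0 CPM, and in KO HI at 11.0, 8.98, 7.44 and 23.2 CPM. KO sham 6 and KO HI 4 were the highest of all libraries.

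Cmpk2, a mitochondrial nucleotide kinase, lies next to Rsad2 in the RefSeq annotation of GRCm38.p6. Its highest levels were 25.4 CPM (KO sham 1), 15.3 CPM (KO HI 3) and 13.2 CPM (KO sham 3), against 7.87 to 10.6 CPM in the other libraries. The 3 libraries with the highest Cmpk2 were also the 3 with the highest neuron marker level (6.57, 5.91 and 4.18 log2 CPM). They were the 3 highest for astrocyte markers (8.90, 8.05 and 6.80) and oligodendrocyte lineage markers (7.71, 6.49 and 5.47) as well. The part of these cell types in the Cmpk2 level was not tested. Rsad2 was at 4.54, 10.8 and 4.14 CPM in these 3 libraries.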
